A study of Mus musculus with 2 samples.

Results

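Among the 13432 droplets of the series, 731 held RNA of the pericyte and of the endothelial program together, 330 of 6354 in the WT library and 401 of 7078 in the GSDME-KO library. These paired droplets were chosen by detected UMIs (unique molecular identifiers, 1 per captured RNA molecule). A droplet had to hold Rgs5, at least 2 of the 5 pericyte genes Kcnj8, Abcc9, Notch3, Higd1b and Cspg4, and both endothelial genes Cdh5 and Pecam1. It also had to hold 0 UMIs of Ptprc, the pan-leukocyte gene, and of Pdgfra, the gene of fibro-adipogenic progenitors (FAPs). Droplets with only one of the 2 programs served for comparison. Pericyte-only droplets held the pericyte program with 0 UMIs of Cdh5 and Pecam1 (112 and 135 droplets, WT and KO), and endothelial-only droplets held Cdh5 and Pecam1 with 0 UMIs of Rgs5 and the 5 other pericyte genes (648 and 613). The remaining droplets with a full program fell between these groups. The pericyte program with only one of Cdh5 and Pecam1 was found in 26 and 25 droplets, and the endothelial pair with some pericyte genes short of the rule in 688 and 679.

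Pericytes are mural cells that wrap capillaries inside the basement membrane they share with the endothelium. In skeletal muscle, with its dense capillary bed, the cells touch through peg-and-socket contacts and exchange signals: endothelial PDGF-B holds pericytes through the receptor PDGFRβ, and Notch, angiopoietin, sphingosine-1-phosphate and endothelin signals run between them. Cdh5 encodes VE-cadherin and Pecam1 the adhesion molecule CD31, while Kcnj8 and Abcc9 encode the subunits of the pericyte KATP channel.

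The series holds 1 library per genotype, both from the gastrocnemius muscle of mice. The muscle had been injected with cardiotoxin (CTX), a venom protein that destroys muscle fibers, 14 days earlier. One library came from wild-type mice (WT-CTX) and the other from mice labelled as knockouts of Gsdme (GSDME-KO-CTX), the gene of the pore-forming protein gasdermin E. The paper describes its Gsdme knockout as global. Only male mice were used in the study, and the methods name 5 mice per genotype without stating how they were pooled. Their age is not given in the sources used here. The tissue was digested at 37 °C before capture. With 1 library per group there is no replicate and no test, so all intervals are exact 95% intervals that cover counting error only, and differences between libraries cannot be told apart from differences between single preparations. The libraries held 44758518 and 50930010 UMIs, with medians of 5740 and 5962.5 UMIs per droplet. Gsdme itself was read at 5.03 CPM (UMIs per 1000000 UMIs of a library or group of droplets) in the WT library (4.39 to 5.73) and 4.65 in the library labelled KO (4.08 to 5.29). In paired droplets it was read at 3.41 CPM in the WT library and 2.30 CPM in the KO library (log2 ratio, -0.57; -1.73 to 0.56). A drop of the targeted gene beyond counting error was thus not detectable in the library labelled KO, although the paired interval allows one. The position of the deleted part of the gene is not given in the sources used here, and every direction between libraries below rests on the labels. The libraries shared 4 cell barcodes, and 1 paired droplet had such a barcode.

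Genes that the rule did not use showed both programs in the same droplets. The 20 pericyte genes held out of the rule, among them Pdgfrb, Vtn and Ndufa4l2, had a median of 51.5 UMIs per paired droplet in the WT library and 50 in the KO library. Pericyte-only droplets had medians of 29 and 30, and endothelial-only droplets 2 in both. The 20 held-out endothelial genes, among them Kdr, Flt1 and Cldn5, had medians of 120.5 and 122 UMIs in paired droplets, against 44.5 and 45 in endothelial-only and 1 in pericyte-only droplets of either library. A paired droplet thus held 1.78 and 1.67 times the pericyte UMIs of a pericyte-only droplet, and 2.71 times the endothelial UMIs of an endothelial-only droplet in both libraries. These are descriptions, since the rule sets which droplets enter each group.

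**Figure D1:**
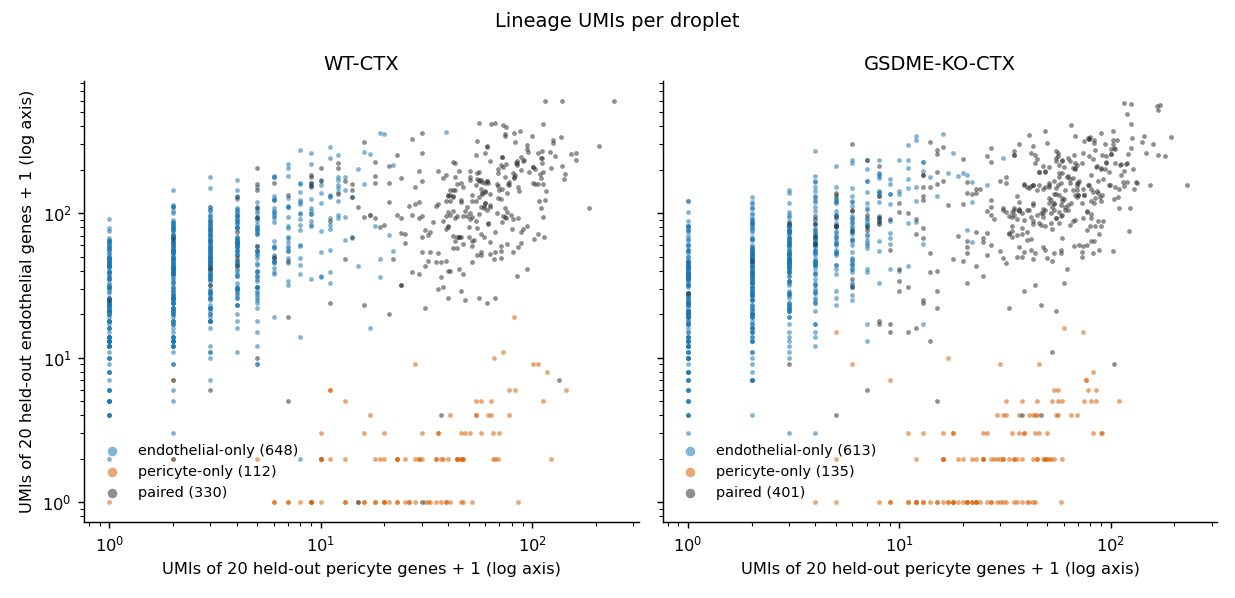
UMIs of 20 held-out pericyte genes (x axis) and of 20 held-out endothelial genes (y axis) in each droplet, both with 1 added and on log axes, for the WT-CTX (left) and GSDME-KO-CTX (right) libraries. Paired droplets (dark) lay at the upper right, with medians of 51.5 and 120.5 UMIs in the WT library and 50 and 122 in the KO library, apart from the pericyte-only droplets along the bottom.

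Most paired droplets held more endothelial than pericyte RNA. The endothelial genes made up a median of 70.2% of the held-out lineage UMIs in the WT library (quartiles, 59.3 and 79.7) and 72.0% in the KO library (62.7 and 80.3). In pericyte-only droplets the medians were 2.86% and 3.23%, and in endothelial-only droplets 96.1% and 96.3%. Of the paired droplets, 48.2% and 53.9% had an endothelial share between 60 and 80%, and 24.5% and 26.4% a share of 80% or more. A share from 20 to 40% was found in 12 and 10 paired droplets, and a share under 20% in 4 of each library. When the summed profile of the 40 held-out genes was fitted as a non-negative mix of the 2 single-program profiles, the endothelial weight was 75.1% and 75.8%.

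**Figure D2:**
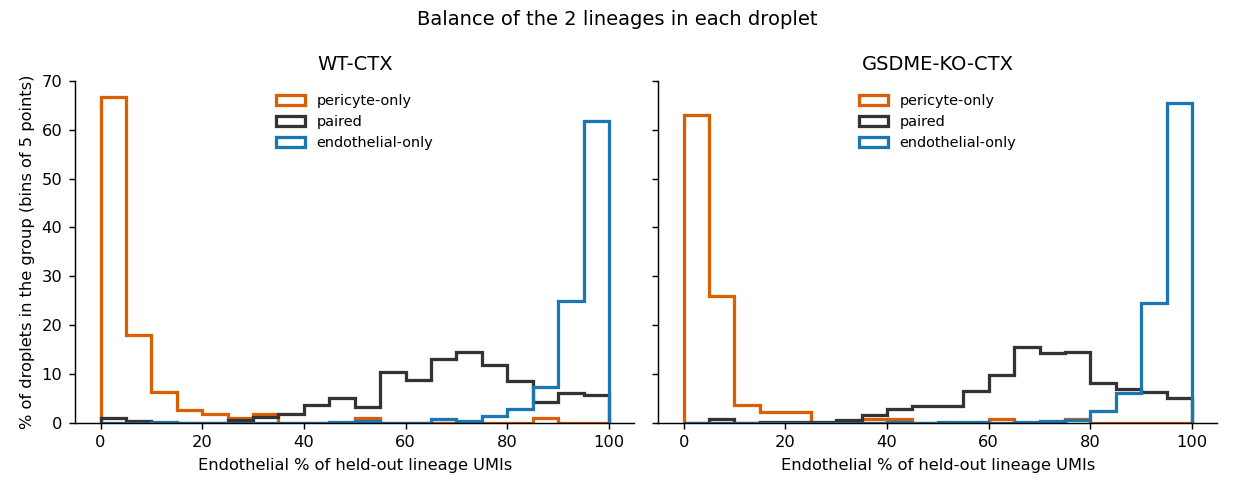
Endothelial percent of the held-out lineage UMIs (x axis, bins of 5 points) against the percent of droplets of each group (y axis), for the WT-CTX (left) and GSDME-KO-CTX (right) libraries. The paired droplets formed a broad band around their medians of 70.2% and 72.0%, while the single-program groups sat at the ends, at 2.86% and 96.1% in the WT library.

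The rule cut through a continuous range on the pericyte side. Members with exactly 2 of the 5 pericyte genes numbered 60 and 81, with a median endothelial share of 90.2% and 85.7% and medians of 16.5 and 12 held-out pericyte UMIs. Just outside, droplets with the endothelial pair, Rgs5 and 1 of the 5 genes (127 and 141) had a median endothelial share of 93.5% and 94.3% and 5 and 7 pericyte UMIs. At the inner end, the 80 and 124 members with all 5 genes had shares of 68.0% and 69.6% and 75.5 and 78 pericyte UMIs. On the endothelial side, the 26 and 25 droplets with only one of Cdh5 and Pecam1 had a median endothelial share of 12.3% and 19.7% at 2424 and 2363 UMIs. A further 38 and 33 droplets met the rule except for a UMI of Ptprc or Pdgfra, and these were deeper still, with medians of 21642 and 19659 UMIs.

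Rgs5, which encodes a regulator of G-protein signaling used to mark pericytes, was also read in droplets without the other pericyte genes. Of droplets with the endothelial pair and none of the 5 panel genes (1165 and 1104, median 4088 and 3609 UMIs), 44.4% and 44.5% held a UMI of Rgs5. Among FAP droplets, marked by Pdgfra and Dpt and without either program, 8.57% and 8.12% did at medians of 8152 and 8897.5 UMIs. After each droplet was thinned to 2000 UMIs the shares were 35.7% (32.6 to 38.9) and 38.5% (35.2 to 41.9) of the endothelial droplets, against 2.66% and 2.33% of the FAP droplets and 2.74% and 3.10% of immune droplets marked by Ptprc and Laptm5. The level was 637 and 911 CPM in these endothelial droplets, 16.7 and 13.95 in the FAP droplets, and 15160 and 20610 in pericyte-only droplets. Rgs5 alone therefore did not separate the groups, and endothelial-only droplets were defined as lacking it.

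Droplets with the pericyte program held the endothelial pair more often than the gene pairs of 3 other lineages. Leaving aside the condition on Ptprc and Pdgfra, 70.4% of 523 WT droplets (66.2 to 74.2) and 70.5% of 616 KO droplets (66.7 to 74.0) with the pericyte program also held Cdh5 and Pecam1, a pair found in 28.5% and 25.7% of all droplets. The FAP pair, Pdgfra and Dpt, was in 22.3% and 25.7% of all droplets and in 5.16% and 4.22% of the pericyte-program droplets. The immune pair was found in 2.1% and 1.3%, beside 15.1% and 17.5% of all droplets. The pair of muscle stem cells, called MuSCs (Pax7 and Myf5), was found in 1.53% and 1.79%. That was near its share of all droplets, 1.37% and 1.65%. In the other direction, FAP droplets held the endothelial pair in 3.81% and 2.26% of cases at medians of 8324 and 9050 UMIs, and immune droplets in 3.03% and 2.74% at 6379 and 6193.5. The pericyte-program droplets had medians of 10338 and 9362.5 UMIs, above those of the FAP and immune droplets, and the part of depth was not tested.

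At full depth, the share of paired droplets differed between the libraries beyond counting error on 1 of 3 denominators, the droplets with the endothelial program, and with droplets thinned to 2000 UMIs on all 3. They made up 5.19% of all droplets (4.66 to 5.77) in the WT library and 5.67% (5.14 to 6.23) in the KO library. The KO share was 0.472 points above the WT share (interval, -0.308 to 1.25). Among droplets with the pericyte program the shares were 70.5% and 71.5%, a difference of 0.967 points (-4.71 to 6.69). Among droplets with the endothelial program they were 19.8% (17.9 to 21.8) and 23.7% (21.7 to 25.8), so the KO share was 3.88 points above (interval, 1.05 to 6.70). Thinned, the KO share was 0.744 points above among all droplets (0.133 to 1.35), 10.2 points above among pericyte-program droplets (1.24 to 19.0) and 4.29 points above among endothelial-program droplets (1.69 to 6.88). Not thinned, the same droplets of at least 2000 UMIs gave 0.46 (-0.503 to 1.42), 3 (-2.15 to 8.22) and 4.43 points (1.15 to 7.7). Membership rests on detecting the rule's 6 pericyte genes, whose summed level was higher in the KO library. Its log2 ratio was 0.41 in paired and 0.44 in pericyte-only droplets. The part of this difference in the shares was not tested.

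Depth moved with the group. Paired droplets had a median of 13297.5 UMIs in the WT library and 12440 in the KO library, 6.24 and 6.86 times the medians of pericyte-only droplets (2129.5 and 1813) and 3.96 and 4.13 times those of endothelial-only droplets (3361 and 3010). The paired median was 2.42 and 2.58 times the sum of both single-program medians. None of the 112 pericyte-only droplets of the WT library reached the paired median, and 2 of 135 did in the KO library. Of the endothelial-only droplets, 27 of 648 and 39 of 613 did. The share of pericyte-program droplets that were paired rose with depth, from 4.48% and 7.37% under 2000 UMIs to 27.5% and 36.8% from 2000 to 5000, 84.4% and 90.6% from 5000 to 10000 and 98.7% and 97.0% from 10000 to 20000. Every pericyte-program droplet with 20000 UMIs or more was paired in both libraries. A single-program droplet is one in which no UMI of the other program was read, so a shallow droplet meets that definition more easily. Thinned to 2000 UMIs, 48.2% (41.6 to 54.9) of 228 WT and 58.5% (52.5 to 64.2) of 284 KO pericyte-program droplets were still paired, after 67 and 95 shallower ones were left out.

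**Figure D3:**
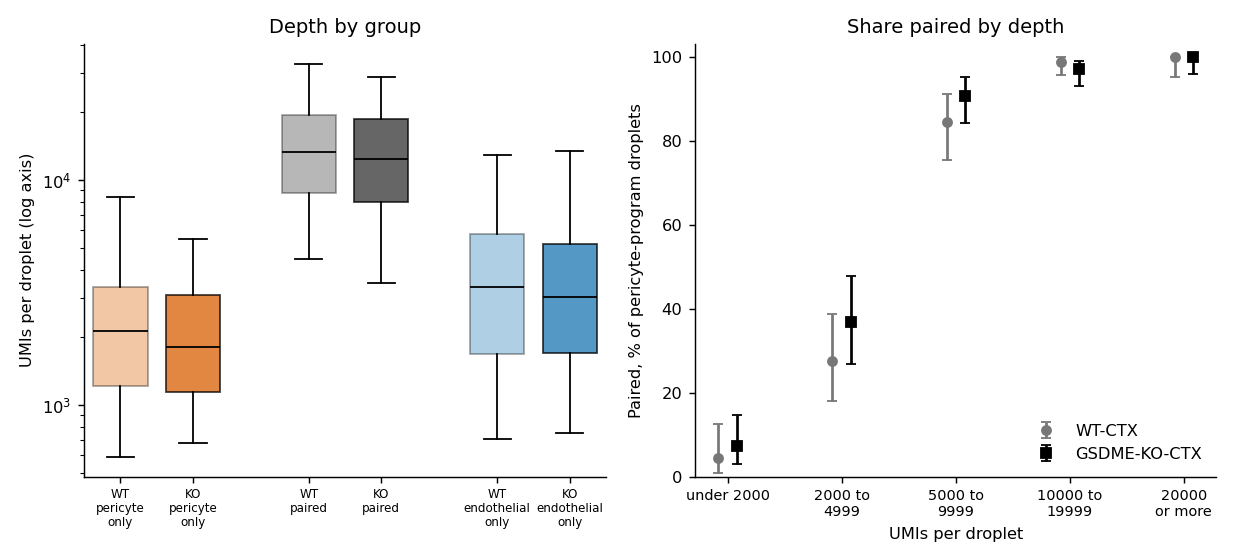
Left, UMIs per droplet on a log axis by group and library (box, quartiles and median; whiskers, 5th to 95th percentile). Right, percent of pericyte-program droplets that were paired in 5 depth ranges, with exact 95% intervals. The share went from 4.48% and 7.37% in the shallowest range to 100% in the deepest.

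The number of genes per droplet followed the depth. Paired droplets had medians of 3783.5 and 3734 genes, against 1174 and 1085 in pericyte-only and 1638 and 1592 in endothelial-only droplets. At 2000 UMIs per droplet the medians were 1155 and 1154.5, against 1125 and 1143 and against 1150.5 and 1168. The study's methods name a removal of doublets with DoubletFinder before deposit. A second caller, Scrublet, marked 4 of the 330 and 8 of the 401 paired droplets, 1.21% and 2%, beside 1.59% and 1.54% of all droplets. Whether a paired droplet held cells that were joined in the tissue, cells captured by chance together or a single cell with free RNA cannot be told apart in these files.

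The lineage genes of the paired profile lay mostly between the single-program profiles in both libraries, more often than genes in general. Of 7883 genes with at least 50 UMIs in paired droplets of each library, 38.7% were at a level between those of pericyte-only and endothelial-only droplets in both libraries. Above both groups in both libraries were 6.55%, and below both 15.7%. The remaining genes differed in position between the libraries. No gene was above both by 2-fold in both libraries (0%), and 9 genes, 0.114%, were below both by 2-fold. Of the held-out lineage genes that passed the 50-UMI filter, 17 of 18 pericyte and 17 of 20 endothelial genes lay between. A gene with far-apart levels in the single-program groups can lie between them more easily than a gene with near-equal levels. Counts of list genes lying between, here and below, thus describe the lists and do not test a pathway. Pdgfrb, the PDGF-B receptor, stood at 241 and 289 CPM in paired droplets, 1032 and 1466 in pericyte-only and 6.99 and 2.57 in endothelial-only droplets. Kdr, the main VEGF receptor, stood at 604 and 832 in paired, 9.65 and 14.99 in pericyte-only and 1026 and 1193 in endothelial-only droplets. Sox7, a transcription factor of endothelial cells, was the 1 held-out lineage gene above both groups in CPM. Per 1000 UMIs of the endothelial list, Sox7 stood at 44.7 and 33.5 in paired and 25.7 and 23.5 in endothelial-only droplets. On that scale other members were higher in paired droplets as well, such as Cldn5 (log2 ratio, 0.46 and 0.22).

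Ligand and receptor genes that divided between pericyte-only and endothelial-only droplets were read side by side in paired droplets, mostly at levels between the single-program groups. Pdgfb, the endothelial ligand, was read in 58.2% and 66.3% of paired droplets, at 97.9 and 140 CPM. Endothelial-only droplets had 267 and 306 CPM, pericyte-only droplets 9.65 and 8.99. The log2 ratio of paired over endothelial-only droplets was -1.45 and -1.12, and relative to the held-out endothelial genes it was still -1.05 (-1.21 to -0.88) and -0.74 (-0.88 to -0.60). The held-out endothelial genes themselves moved both ways on this scale. Podxl, a sialomucin of the luminal surface, had log2 ratios of -0.56 and -0.50, and Egfl7, a secreted endothelial factor, -0.37 and -0.46. Cldn5 had ratios of 0.46 and 0.22 and Erg 0.45 and 0.22. The members make up their own denominator, so some must lie below 0 when others lie above.

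The angiopoietin receptor gene Tek stood at 119 and 146 CPM in paired, 187 and 213 in endothelial-only and 6.43 and 5.995 in pericyte-only droplets. Its ligand Angpt1 was rare everywhere, at 2.61 and 1.59 CPM in paired and 19.3 and 11.99 in pericyte-only droplets. Of the Notch genes, the ligand Dll4 stood at 200 and 199 in paired, 224 and 261 in endothelial-only and 6.43 and 2.997 in pericyte-only droplets. Jag1 went the other way, with 78.0 and 84.5 in paired, 219 and 327 in pericyte-only and 60.9 and 43.4 in endothelial-only droplets. Heyl, a Notch target of mural cells, stood at 39.9 and 57.7 in paired, 187 and 240 in pericyte-only and 0.998 and 1.47 in endothelial-only droplets. Of 10 Notch genes tested 9 lay between the groups, against 38.7% of all genes, and Hes1, a broad Notch target, was below both (255 and 366 against 296 and 510 and 423 and 478). As above, this count does not test the pathway.

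The sphingosine-1-phosphate receptors separated by cell. S1pr1 stood at 467 and 516 CPM in endothelial-only, 273 and 332 in paired and 3.22 and 8.99 in pericyte-only droplets, and S1pr3 at 1.33 and 1.10, 124 and 128, and 460 and 453. The endothelin receptor gene Ednra was read in 32.7% and 33.7% of paired droplets, at 29.1 and 36.3 CPM against 161 and 237 in pericyte-only droplets. Cdh2, which encodes the N-cadherin of pericyte-endothelial contacts, stood at 17.5 and 23.7 in paired and 61.1 and 98.9 in pericyte-only droplets. The connexin gene Gjc1 stood at 100.7 and 96.0 in paired, 373 and 339 in pericyte-only and 35.6 and 28.3 in endothelial-only droplets, whereas Gja1 was read at 442 and 569 in paired, 421 and 592 in endothelial-only and 12.9 and 30.0 in pericyte-only droplets. Of the 14 junction and adhesion genes tested, 11 lay between, beside 38.7% of all genes, a count that likewise describes the list only.

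**Figure D4:**
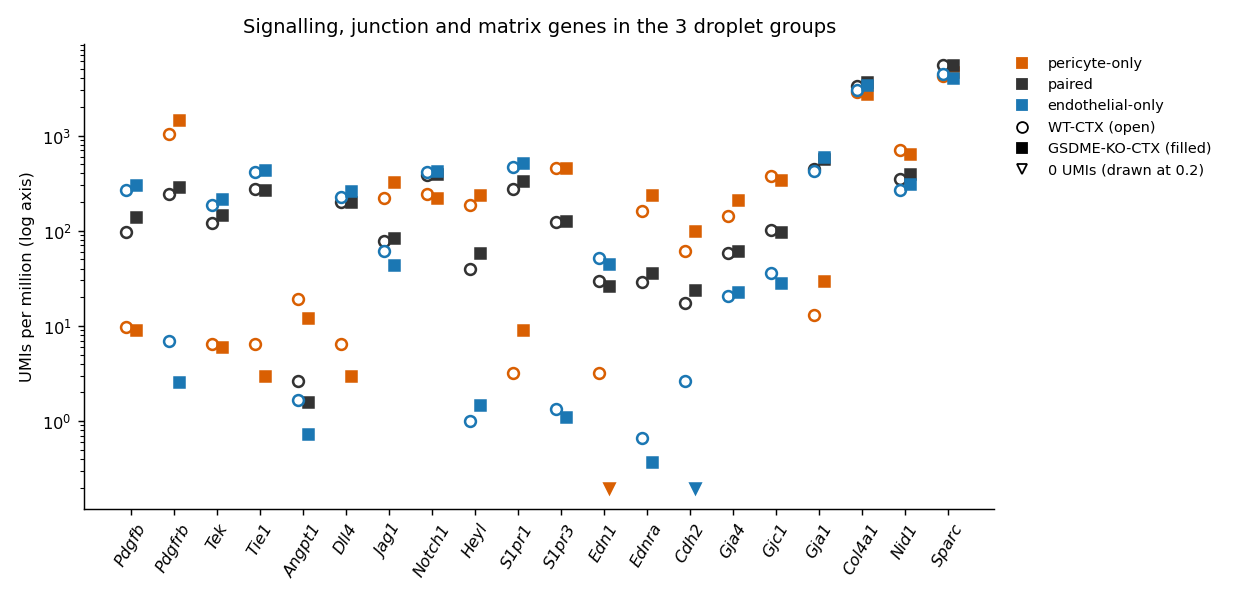
Level of 20 signaling, junction and matrix genes in CPM (y axis, log) in pericyte-only (orange), paired (dark) and endothelial-only (blue) droplets, open for WT-CTX and filled for GSDME-KO-CTX, with triangles at 0.2 for 0 UMIs. Paired values lay between the single-program values for lineage genes such as Pdgfrb, S1pr1 and S1pr3, and above both for Col4a1 and Sparc.

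Of the 14 basement membrane genes, 6 lay between the groups, 3 above both and 2 below both, and over all genes tested the shares were 38.7%, 6.55% and 15.7%. Col4a1 and Col4a2, the main collagen IV chains, stood at 3333 and 3616 and at 1592 and 1714 CPM in paired droplets. Pericyte-only droplets had 2855 and 2701 for Col4a1, and endothelial-only droplets 2977 and 3382. Sparc, a collagen-binding matrix protein, stood at 5457 and 5495 in paired against 4232 and 4679 in pericyte-only and 4468 and 3994 in endothelial-only droplets. The differences were small, with log2 ratios over the higher group of 0.16 and 0.10 for Col4a1 and 0.29 and 0.23 for Sparc.

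The endothelial side of the paired droplets held capillary RNA and little lymphatic RNA. Capillary genes such as Fabp4, Rgcc and Gpihbp1 stood at 2218 and 2033 UMIs per 1000 UMIs of the endothelial list in paired droplets, against 1895 and 1720 in endothelial-only droplets (log2 ratio, 0.23 and 0.24). Fabp4, a fatty acid binding protein, made up 1382 and 1268 of these sums. The members did not move together: Rgcc had log2 ratios of 0.57 and 0.50, Gpihbp1 0.13 and 0.02, the aquaporin gene Aqp7 -0.24 and -0.18, Btnl9 -0.47 and -0.17, and the carbonic anhydrase gene Car4 0.14 and -0.92. Lymphatic genes stood at 8.42 and 13.9 per 1000 against 321 and 322, a log2 ratio of -5.25 (-5.40 to -5.11) and -4.53 (-4.64 to -4.43). Ccl21a, the chemokine of lymphatic vessels, was at 1.61 and 46.5 CPM in paired and 2885 and 3098 in endothelial-only droplets, and 99.6% of its UMIs in paired droplets of the KO library came from 5 droplets. Thinned to 2000 UMIs, 0 of 327 and 2 of 394 paired droplets held at least 3 of the 7 lymphatic genes, against 33 of 458 and 43 of 423 endothelial-only droplets. A count of 0 of 327 has an upper bound of 1.12%. With those lymphatic droplets left out of the endothelial-only group, the capillary ratio over both libraries went from 0.23 to 0.14.

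Arterial and venous genes differed little as lists. Relative to the endothelial list, arterial genes had log2 ratios of 0.09 and 0.14 and venous genes 0.04 and -0.07, and the arterial difference turned to -0.27 over both libraries when only endothelial-only droplets at or above the paired median depth were used. Single genes moved apart within the lists. Stmn2, counted with the arterial genes, had log2 ratios of -0.79 (-0.99 to -0.60) and -1.34 (-1.56 to -1.13), and Ephb4, the receptor that marks veins, -0.99 and -0.76. Gja4 had ratios of 1.90 and 1.83, but it is also a pericyte gene here, at 142 and 210 CPM in pericyte-only droplets. In the venous list Nr2f2 (1.25 and 1.42) and Vcam1 (1.29 and 0.73) were higher, while Lrg1 (-0.52 and -1.57) and Aplnr (-0.47 and -0.73) were lower. Pericyte-only droplets held the venous list at 617 and 779 CPM, beside 641 and 635 in paired droplets. The venous sum is thus not endothelial alone, and its ratio near 0 does not show that venous RNA was unchanged. Selp, a gene of postcapillary venules, came from few droplets, with 94.7% and 92.9% of its UMIs in 5 paired droplets per library.

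Smooth-muscle contractile genes were lower in paired than in pericyte-only droplets when all droplets were summed. Per 1000 UMIs of the pericyte list they stood at 400 and 243 in paired against 548 and 304 in pericyte-only droplets, a log2 ratio of -0.45 (-0.52 to -0.38) and -0.32 (-0.41 to -0.24). The direction rested on the deepest droplets: without the deepest 5% of each group the ratio over both libraries was 0.31 (0.24 to 0.38) in place of -0.41, and thinned to 2000 UMIs it was -0.08. Acta2, smooth-muscle actin, stood at 300 and 109 CPM in paired and 1962 and 1046 in pericyte-only droplets. Myh11, the smooth-muscle myosin heavy chain, was read in 64.8% and 59.4% of paired droplets, with a WT level of 132 CPM.

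Among genes read in at least 20% of paired droplets of each library, those farthest above both single-program groups included interferon-induced genes. Ifit1, an antiviral RNA-binding protein, stood at 481 and 338 CPM in paired, 38.6 and 36.0 in pericyte-only and 284 and 190 in endothelial-only droplets, 0.76 and 0.84 log2 units above the higher group. Isg15, a ubiquitin-like modifier, stood at 1069 and 409 in paired, 367 and 150 in pericyte-only and 732 and 259 in endothelial-only droplets. Of the 10 interferon response genes, 6 were above both groups and 2 between, where 6.55% and 38.7% of all genes tested were. Iigp1 and Irgm1, interferon-induced GTPases, and the chemokine Cxcl9 were named by the same rule, with log2 ratios over the higher group of 0.45 and 0.54, 0.42 and 0.38, and 0.42 and 0.40. So were Bcl3, an NF-κB regulator, at 98.5 and 123 CPM against 64.5 and 72.8 in endothelial-only droplets, Pfkfb3, a regulator of glycolysis, at 169 and 218 against 127 and 160, and the cell-cycle inhibitor Cdkn1a at 1433 and 1087 against 1107 and 804. The others were Tmem252, Rab20, B4galt3, Nod2, Noct, Fosl1 and Bmp4, with log2 ratios over the higher group between 0.38 and 1.39. In the WT library the intervals over pericyte-only droplets held 0 for Rab20 (-0.37 to 1.52), B4galt3 (-0.23 to 1.37) and Fosl1 (-0.27 to 1.14), and Fosl1 turned to -0.35 against droplets of at least 5000 UMIs. None reached 2-fold in both libraries, and when all droplets were thinned to 2000 UMIs 8 of the 15 genes, Ifit1, Cxcl9 and Irgm1 among them, turned below the higher group.

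Below both groups stood Lars2, the mitochondrial leucyl-tRNA synthetase, at 2354 and 922 CPM in paired, 6463 and 2635 in pericyte-only and 4753 and 2348 in endothelial-only droplets. Eln, which encodes elastin, stood at 59.8 and 51.5 against 261 and 351 and against 97.8 and 126. Its 5 highest paired droplets held 32.9% and 27.8% of its UMIs, its ratio to the lower group was -0.28 (-0.93 to 0.45) without the deepest 5% of droplets and 0.11 thinned to 2000 UMIs, where no gene stayed 2-fold below both groups. The splicing-related genes Srsf5, Rbm5, Prpf39 and Ccnl2 were named as well. Srsf5 stood at 325 and 322 in paired, 576 and 534 in pericyte-only and 447 and 444 in endothelial-only droplets. Depth moves with this comparison, and its part was not tested. With comparison droplets of at least 5000 UMIs (15 and 10 pericyte-only droplets), Srsf5, Rbm5, Prpf39, Zfp871 and Atf7ip were no longer below both groups, and the intervals over pericyte-only droplets already held 0 for Atf7ip and Rbm5 in WT and Zfp871 in KO, while Lars2, Eln, Slc5a3 and Ccnl2 were.

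RNA of other cells differed between the groups and libraries. The 4 hemoglobin genes of red cells stood at 1593 and 1692 CPM in paired droplets, where 8 of 330 and 9 of 401 droplets with at least 1% hemoglobin UMIs held 96.2% and 95.7% of them. In pericyte-only droplets they stood at 145 and 32050, and in endothelial-only droplets at 373 and 9433, with 99.6% and 99.0% of the KO UMIs in 3 and 4 droplets. FAP genes stood at 1254 and 1720 in paired, 5505 and 6300 in pericyte-only and 3113 and 1164 in endothelial-only droplets, and 5 of the 8 tested were below both groups in paired droplets, as were 15.7% of all genes tested. Macrophage genes stood at 92.1 and 89.1 in paired droplets, against 1232 and 186 in pericyte-only and 87.2 and 123 in endothelial-only droplets. Every group was chosen to lack UMIs of Pdgfra and Ptprc, and a deep droplet meets that condition less easily than a shallow one. The condition kept 38 WT and 33 KO droplets out of the paired group, with medians of 21642 and 19659 UMIs. The FAP and macrophage levels, and the FAP count, thus describe selected droplets. The part of the condition in them was not tested. Leaving out the droplets with at least 1% hemoglobin UMIs left the lineage balance, the subtype ratios and the counts of genes within their counting error or 1.5 times.

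Between the libraries, paired droplets differed by 2-fold at few genes. Of 9877 genes with at least 50 UMIs over both libraries, 82 (0.83%) were 2-fold higher in the library labelled KO and 93 (0.942%) were 2-fold lower. Of all 12676 genes with at least 10 UMIs, 6974 had a higher level in KO, and their median log2 ratio was 0.04. The held-out lists of both programs were near this value: the pericyte list had a median log2 ratio of 0.06 with 11 of 20 genes higher in KO, and the endothelial list 0.05 with 12 of 20. None of their tested genes was past 2-fold. The 6 pericyte genes of the rule itself were farther from it, with a median of 0.44 and 5 of 6 higher in KO. Rgs5 stood at 6182 and 8316 CPM, Kcnj8 at 175 and 253 and Abcc9 at 395 and 540. In pericyte-only droplets Rgs5 stood at 15160 and 20610. Detection of these 6 genes selects the droplets of both groups. Their levels are thus descriptions of selected droplets, and the shared direction is not independent support.

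Contractile genes were lower in the KO library. All 10 of the 12 list genes with at least 10 UMIs had a log2 ratio under 0, with a median of -0.60, where 6974 of 12676 genes in all were higher in KO. Of 9 tested genes 1 was past 2-fold lower. Acta2 was at 300 CPM in WT and 109 in KO paired droplets, a log2 ratio of -1.45 (-1.59 to -1.32). Tagln, an actin-binding protein, was at 305 and 185, Myl9, a myosin light chain, at 286 and 200, and Tpm2, a tropomyosin, at 198 and 123. The 5 paired droplets with most Acta2 held 25.5% and 19.7% of its UMIs. In pericyte-only droplets the list median was -0.40 with 2 of 11 genes higher in KO. Over the alternatives of processing, the paired median stayed between -0.72 and -0.55.

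Interferon genes were lower as well, with 0 of 10 higher in KO against 6974 of 12676 genes in all, a median log2 ratio of -0.45 and 2 genes past 2-fold. Isg15 went from 1069 to 409 CPM (log2 ratio -1.39; -1.46 to -1.32), Ifit3, another antiviral RNA-binding protein, from 114 to 49.5, and Rsad2, the enzyme viperin, from 289 to 148. Endothelial-only droplets showed a median of -0.51 with 1 of 10 genes higher, and pericyte-only droplets -0.46 with 0 of 8. Immediate early and heat-shock genes, which tissue digestion is known to induce, were mostly higher, with 14 of 19 higher in KO against 6974 of 12676 genes in all, and a median of 0.35. Hspa1b, the inducible HSP70 chaperone, stood at 2002 and 5113 CPM (1.35; 1.32 to 1.39) and was the 1 member past 2-fold, Egr1 stood at 2357 and 3538 and Fos at 2304 and 3384, and Klf4 went the other way, at 1797 and 1225. The pericyte-only median for this list was 0.77 and the endothelial-only median 0.20. Its part in the other differences was not tested.

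**Figure D5:**
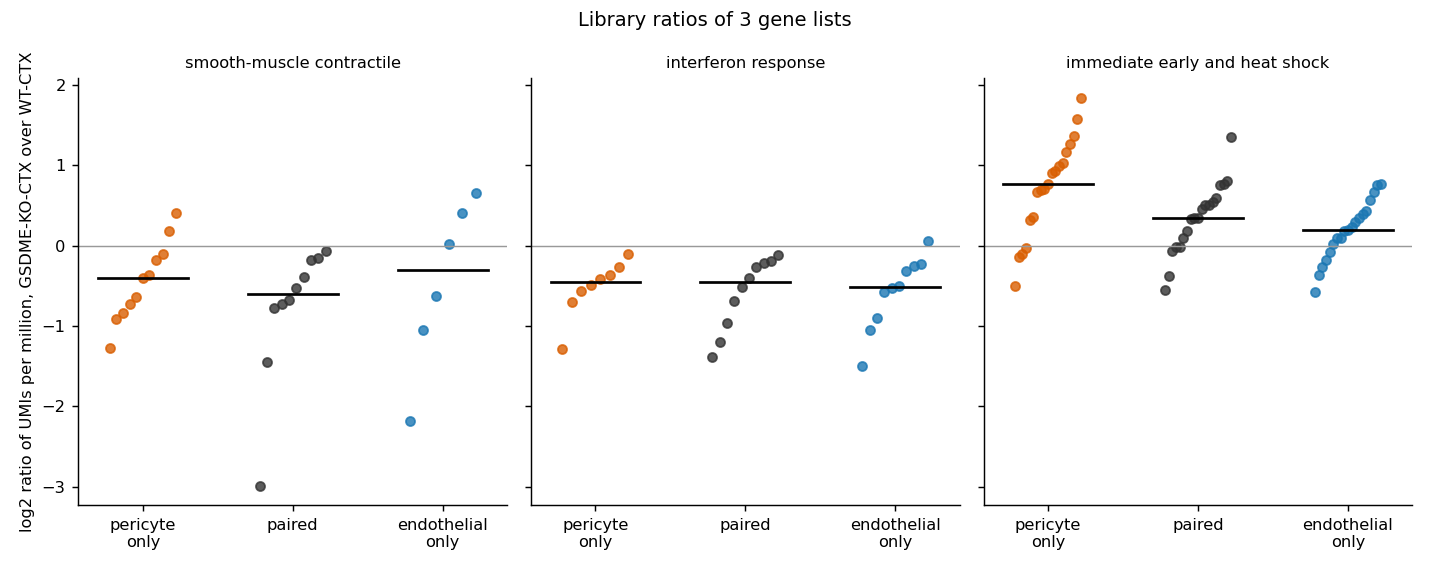
log2 ratio of CPM, GSDME-KO-CTX over WT-CTX, for genes of 3 lists (points, genes with at least 10 UMIs in all and at least 1 in each library; bars, medians of the points drawn) in pericyte-only, paired and endothelial-only droplets. In paired droplets every contractile and interferon gene lay below 0, and 14 of 19 immediate early and heat-shock genes above it.

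The single genes farthest apart, among genes read in at least 10% of paired droplets of the higher library, differed in the same direction in endothelial-only droplets with an interval without 0, except Usb1 and Gm5165. Tpm3-rs7 stood at 369 and 5.66 CPM (log2 ratio -6.03) and Tpm3, a tropomyosin gene, at 241 and 755 (1.65). The names mark near-identical copies between which reads can be split, so neither value is certain. Btnl9, a gene of capillary endothelium, stood at 34.3 and 109 in paired droplets (1.67; 1.42 to 1.92) and 62.9 and 161 in endothelial-only droplets. Sgip1, an endocytic adaptor, stood at 2.21 and 18.7, Mid1, a microtubule-associated ubiquitin ligase, at 4.61 and 22.5, and Agpat4, an acyltransferase of lipid synthesis, at 9.03 and 36.6. The collagen gene Col28a1 was read with 1 UMI in WT and 83 in KO paired droplets, a log2 ratio of 6.19 (3.68 to 11.51), and thinned to 2000 UMIs its ratio was -1.18.

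Cebpb, a transcription factor of acute inflammation, was lower in KO paired droplets, at 713 and 139 CPM (-2.36; -2.48 to -2.25), and stood at 2058 and 405 in pericyte-only and 249 and 68.7 in endothelial-only droplets. Gdf15, a stress-induced cytokine, stood at 179 and 46.0 (-1.96), and Cyp26b1, which breaks down retinoic acid, at 81.0 and 21.9 (-1.89) with 124 and 28.3 in endothelial-only droplets. Tspan8, a tetraspanin, stood at 49.3 and 4.24, Nmnat1, an enzyme of NAD synthesis, at 35.1 and 5.31, and the homeobox gene Adnp at 13.4 and 0.884. The cytokine Il11 was rarer, at 13.4 and 3.54. The calcium pump gene Atp2a1 stood at 18.9 and 2.83, and it belongs to the muscle fiber list, of which 0 of 10 genes were higher in KO and 5 of 9 tested were past 2-fold lower, beside 0.942% of all genes, from 379 to 191 CPM in sum. In pericyte-only droplets 6 of 7 muscle fiber genes were higher in KO (median log2 ratio, 0.90), and in endothelial-only droplets the median was -0.08. Usb1, Gm12216, Gm5165 and Lcp2 were also higher and Gm49980 lower, each under 25 CPM in either library.

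Cell cycle genes were low and came from few droplets. Mki67, which marks dividing cells, stood at 14.8 and 2.83 CPM, with 86.5% and 87.5% of its UMIs in 5 droplets, and Ube2c, a ubiquitin carrier of mitosis, at 18.1 and 1.06. Vegfa was read at 52.4 and 28.8 CPM in paired droplets, a log2 ratio of -0.86 (-1.15 to -0.57), and at 75.9 and 33.4 in endothelial-only droplets. Pgf, placental growth factor, was above both groups in paired droplets of either library, at 139 and 102.9 CPM against 72.5 and 58.8 in endothelial-only droplets, and 5 droplets held 39.9% and 43.0% of its UMIs.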

How the data were processed

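Single cells of mouse gastrocnemius muscle were captured with 10x Genomics 5′ chemistry. The authors' methods name Cell Ranger 7.0.1, Seurat 4.3.0 and DoubletFinder 2.0.4 and removal of cells with over 10% mitochondrial reads, and the submitters' processing notes name Cell Ranger 2.1.1 and mm10. The deposited table holds the natural log of 1 plus UMIs per 10000 in each droplet, as the authors normalized it. UMIs were recovered from the step between low values, with 99.8% of droplets within 0.1 of whole numbers, and library was read from the barcode suffix. UMIs were summed per group and library and given as CPM (numpy 2.4.6, scipy 1.17.1). Levels have exact Poisson intervals, shares Clopper-Pearson intervals, share differences the Newcombe combination of these, and log2 ratios exact conditional binomial intervals. Genes at 0 were set to a floor of 3 UMIs. The comparison code was tested on simulated data. Scrublet was run in scanpy 1.11.5, per library.

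The members and the gene lists were chosen with earlier results of these data known. Genes were named as members of the lists, as the 15 highest above and 10 lowest below both single-program groups (50 UMIs per library in paired droplets, detected in 20% of droplets), or as the 10 highest and 10 lowest between libraries (50 UMIs in all, detected in 10% of droplets of the higher library, interval without 0, same sign by the mean over droplets). Alternatives changed the detection rule, thinning, depth, doublet calls, comparison groups, scaling and the filter on low counts. Genes were given by the symbols in the file, and no sequence was used. Some genes that these rules name, and 1 pair of lineage genes, are not reported here.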

Additional observations from a re-analysis of the deposited data

How the results depend on the processing

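No paired analysis was possible because each genotype has 1 library, and for the same reason no replicate could be left out. Of 593 alternative values for 67 results, 460 stayed within counting error or 1.5 times, 108 moved further and 25, whose reported interval excluded 0, changed sign. Values whose interval held 0 also changed sign, among them the pericyte-program share difference (-3.47 points with at least 3 panel genes), the venous ratio (0.12 thinned) and the pericyte list's library median (-0.03 thinned). The cause was not tested for any of them. The comparison groups with at least 5000 UMIs, and those without hemoglobin-rich or lymphatic droplets, were chosen after seeing the data. Pericyte-only droplets at or above the paired median depth numbered 0 and 2, so pericyte comparisons gave no value there. Depth limits every comparison with pericyte-only droplets.

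Thinned to 2000 UMIs, the library difference in the paired share of pericyte-program droplets was 10.2 points, the endothelial share 66.7% and its weight 65.8%, the capillary ratio 0.10, the contractile ratio -0.08, the genes below both groups 0, and the genes 2-fold higher and lower in KO 32 and 30. Changed in sign were Ifit1 (-0.05), Irgm1 (-0.05), B4galt3 (-0.12), Nod2 (-0.13), Bmp4 (-0.28), Tmem252 (-0.33), Cxcl9 (-0.38) and Noct (-0.61) relative to the higher group, Zfp871 (0.03), Rbm5 (0.09) and Eln (0.11) relative to the lower group, and Col28a1 (-1.18) and Gm5165 (-2.18) between libraries.

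With droplets of at least 2000 UMIs, the depth ratios were 3.9 over pericyte-only and 2.93 over endothelial-only droplets, the weight 74.5%, the capillary ratio 0.20, the contractile ratio -0.69 and Zfp871 0.14. Without the deepest 5% the capillary ratio was 0.19, the contractile ratio 0.31, and 1 gene was above and 2 below both groups. With comparison droplets at or above the paired median depth the capillary ratio was 0.48 and the arterial ratio -0.27. With those of at least 5000 UMIs the weight was 71.5%, the capillary ratio 0.21, the arterial ratio -0.01, the contractile ratio -2, and Nod2 (-0.23), Atf7ip (0.23), Prpf39 (0.54), Zfp871 (0.79), Srsf5 (1.09) and Rbm5 (2.01) changed sign, as did Fosl1 (-0.35).

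With at least 3 panel genes the endothelial share was 69.5%, the weight 74.9% and the genes below both groups 3. With 2 or more UMIs of Cdh5 and Pecam1 the depth ratio over endothelial-only droplets was 3.57. By the mean over droplets the weight was 72.5%, 1 gene was above and 3 below both groups, 131 genes were 2-fold higher in KO, and Nod2 was at -0.25. Without lymphatic droplets the weight was 73.4%, the capillary ratio 0.14, the lymphatic ratio 1, which follows from leaving them out, and 1 gene was above and 3 below both groups. With a minimum of 20 UMIs, 21 genes were below both groups and 207 and 238 were 2-fold higher and lower in KO, against 9, 82 and 93 with 50.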
